A study of Mus musculus with 12 samples.

Results

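Zinc finger protein genes with a symbol from Zfp600 to Zfp999 were followed in BV2 cells, an immortalised mouse microglial line, after stimulation with LPS and pretreatment with telmisartan. The members are the genes with a feature annotated to 1 symbol made of Zfp, a number in that range and at most 1 final letter. This gave 166 of 22180 measured genes, each read from its brightest feature on average, and 178 features in all. Expression was measured on 12 arrays, 3 for each of 4 treatments of wild-type BV2 cells. In the telmisartan+LPS group the drug was given 2 h before 1 h of LPS. In the LPS group 2 h of vehicle preceded 1 h of LPS. The telmisartan group had the drug alone for 3 h, and the DMSO group had vehicle alone for 3 h. All 4 groups contained 1.5% DMSO, so every group, the controls included, was exposed to the solvent. LPS (lipopolysaccharide) comes from the outer membrane of bacteria and triggers innate immune signalling through Toll-like receptor 4. Telmisartan is an antihypertensive drug that blocks angiotensin receptors of type 1. Its dose is not given in the labels. BV2 is 1 immortalised line, so no array stands for a separate animal.

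Most genes of this name encode proteins with a run of zinc fingers that bind DNA, many of them joined to a KRAB domain. A KRAB domain binds the corepressor Trim28, which brings in the histone methyltransferase Setdb1, heterochromatin proteins and histone deacetylases, and many KRAB zinc finger proteins silence transposable elements in this way. The genes lie in clusters of recently duplicated neighbours. Close neighbours can be so alike in sequence that an array feature may read more than 1 of them, and such features are uncertain.

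Each difference is a log2 change with its SE (standard error), both taken from a linear model that limma fitted to all genes and all arrays. A gene was called when its Benjamini-Hochberg adjusted p over the 22180 genes was under 0.05. Array medians lay between 4.08 and 4.13 on the log2 scale. Of 10 microglia and macrophage markers, all 10 had a mean log2 signal of 6.47 to 12.23, while markers of astrocytes, neurons, oligodendrocytes and fibroblasts lay between 2.66 and 5.03. The mean signal of the microglial list was 9.54 to 9.58 on telmisartan+LPS arrays, 9.57 to 9.60 on LPS arrays, 9.46 to 9.54 on telmisartan arrays and 9.5 to 9.57 on DMSO arrays. As a check of the LPS treatment, all 10 early response genes examined were called higher over both drug states, among them the chemokine gene Cxcl2 with a log2 change of 4.07 (SE 0.16, limma adjusted p = 1.74e-08) and the cytokine gene Il1b with 3.68 (SE 0.17, adjusted p = 3.49e-08). An array measures RNA from many cells together, so fewer cells with a transcript and less of it per cell cannot be told apart.

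Member signals spanned the range of the arrays. The mean log2 signal over all arrays was between 2.46 and 10.49, with a median of 5.28. Of the 166 members, 114 were at or above the median signal of all genes (4.44) and 52 were below it. The spread between arrays of a group was wider for the members than for the median gene, with a median pooled SD of 0.151, against 0.125 for the 196 genes Zfp1 to Zfp599 and 0.117 for all genes. The widest member had an SD of 0.383 and the tightest 0.0439.

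The first question was whether the family moved within 1 h of LPS. No member passed the test in either LPS comparison, or in the average LPS effect over both drug states. In that average, 0 of 166 members were called, where 0.667% of all genes were called (limma, adjusted p). At an unadjusted p under 0.05, 21 members were lower and 4 were higher, which is 12.7% and 2.41% of the members, against 7.61% and 6.79% of all genes. Among the brighter members, those at or above the median signal of all genes, 15.8% were lower and 2.63% higher, against 13.3% and 5.55% of all brighter genes. The signs of the changes leaned downward. Of the members, 111 had a log2 change below 0, or 66.9%, against 48.5% of all genes, and the median log2 change was -0.04 for the members and 0.00333 for all genes. Among the genes Zfp1 to Zfp599, 14.3% were lower and 7.65% higher at an unadjusted p under 0.05. The share of them below 0 was 56.6%, with a median of -0.0283. These medians correspond to changes of a few percent in signal.

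The share of members below 0 moved with signal. Of the 114 brighter members, 83 (72.8%) were below 0 with a median of -0.0583, against 64.1% of all brighter genes with a median of -0.0317. Of the 52 dimmer members, 28 (53.8%) were below 0 with a median of -0.0167, against 33.0% of all dimmer genes with a median of 0.035. The lower share of the family therefore stood beside a general difference between bright and dim genes, and its part in the result was not tested. Setting all arrays to equal medians moved members and other genes alike. The share below 0 in the average LPS effect was then 80.7% of members, against 66.6% of all genes, and the medians were -0.085 for members and -0.0417 for all genes. Equal medians shift every gene of an array alike, so the members' median less that of all genes stayed at -0.0433. That difference could not have changed, so it does not test the lean.

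**Figure D1:**
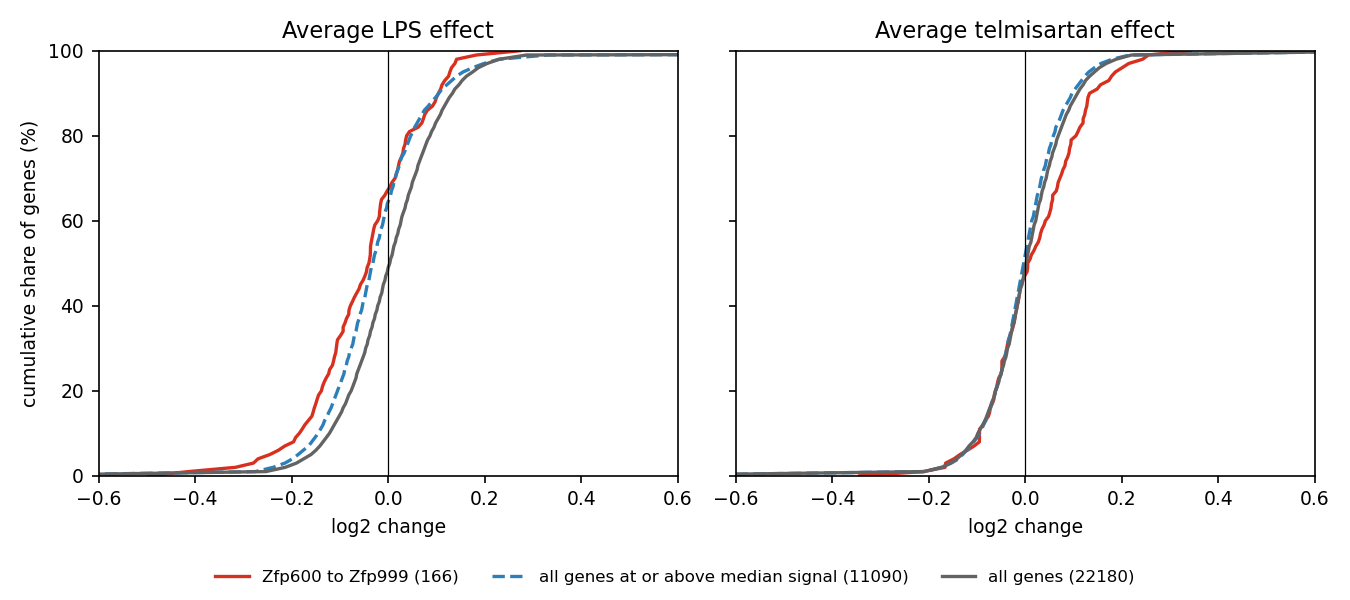
Cumulative share of genes (%) against the log2 change, for the average LPS effect (left) and the average telmisartan effect (right), for the members (red), all genes at or above median signal (blue, dashed) and all genes (grey). The LPS curve of the members crosses 0 at 66.9%, against 48.5% for all genes and 64.1% for all genes at or above median signal. The telmisartan curve of the members crosses at 47.0%, against 48.4% for all genes.

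The lean was seen in both LPS comparisons, which share no arrays but were normalized together. Members were chosen with earlier results of these data known, so the 2 comparisons are not an independent test of it. Of the genes Zfp1 to Zfp599, 58.7% were below 0 in LPS against DMSO and 55.1% in telmisartan+LPS against telmisartan. In LPS against DMSO, 105 members (63.3%) were below 0, against 52.0% of all genes, and the median was -0.0433, against -0.00667 for all genes. Among the brighter members 67.5% were below 0 there, against 62.8% of all brighter genes. In telmisartan+LPS against telmisartan, 98 members (59.0%) were below 0, against 45.2% of all genes, with medians of -0.0433 and 0.0133. Here 64.0% of the brighter members were below 0, against 56.4% of all brighter genes. With equal array medians the share below 0 was 73.5% of members, against 62.6% of all genes, in LPS against DMSO. It was 76.5% of members, against 63.2% of all genes, in telmisartan+LPS against telmisartan. Both comparisons called 0 members, where 0.428% of all genes were called in LPS against DMSO and 0.261% in telmisartan+LPS against telmisartan (limma, adjusted p). At an unadjusted p under 0.05, 12 members were lower (background 4.93% of all genes) and 3 higher (background 4.09% of all genes) in LPS against DMSO. In telmisartan+LPS against telmisartan 15 members were lower (background 6.56% of all genes) and 3 higher (background 7.07% of all genes). Counted together, 71 members (42.8%) were below 0 in both comparisons, against 26.3% of all genes, and 34 (20.5%) were above 0 in both, against 27.9% of all genes. Of the genes Zfp1 to Zfp599, 39.3% were below 0 in both and 24.5% above 0 in both, so the lean was not particular to the members.

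**Figure D2:**
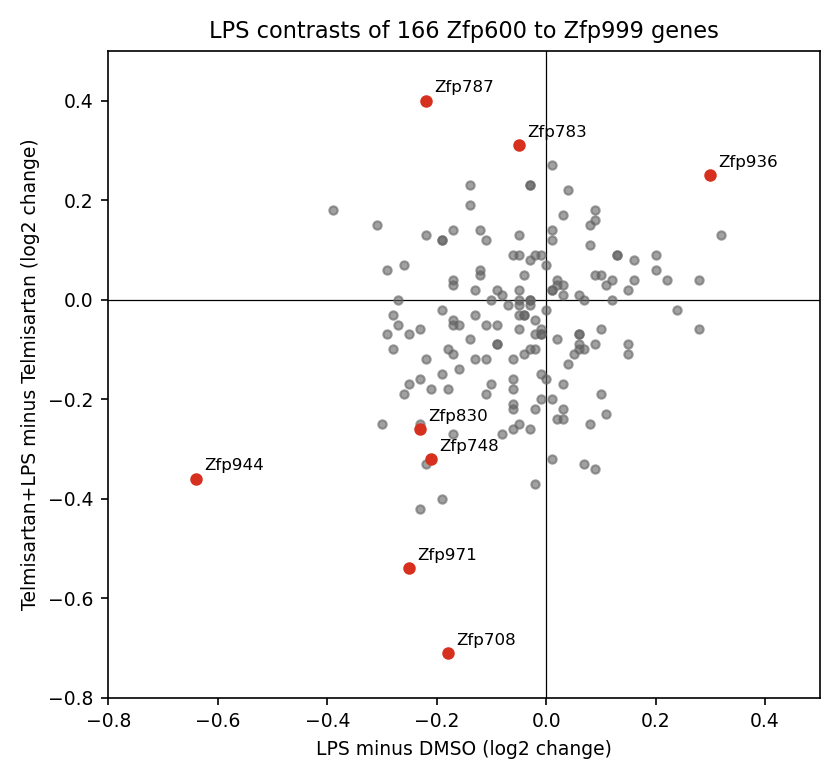
Log2 change of each member in LPS against DMSO (x axis) and in telmisartan+LPS against telmisartan (y axis), where each point is 1 member and the named members are red. Of the 166 points, 71 lie below 0 on both axes and 34 above 0 on both, and Zfp830 is the member whose groups do not overlap in either comparison.

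Groups that do not overlap were counted as a description. In LPS against DMSO 18 members had all 3 LPS arrays below all 3 DMSO arrays (10.8%, against 9.42% of all genes), and 4 had them above (background 6.28% of all genes). In telmisartan+LPS against telmisartan 14 members were separated downward (8.43%, against 8.95% of all genes) and 4 upward (background 8.03% of all genes). These downward shares are near the background. A single member, Zfp830, was separated downward in both, which is 0.602% of members, against 1.24% of all genes and 3.06% of the genes Zfp1 to Zfp599.

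The members' level on each array was summarised as the median over members of the deviation from each member's own mean. It was -0.0121, -0.0225 and -0.0142 on the telmisartan+LPS arrays, and -0.025, -0.0542 and -0.00958 on the LPS arrays. It was 0.00708, 0.0121 and 0.0371 on the telmisartan arrays, and 0.0475, 0.0104 and -0.0117 on the DMSO arrays. All 6 arrays with LPS were below 0, and 5 of the 6 arrays without it were above 0. The third DMSO array lay within the range of the LPS arrays, so the groups overlapped.

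**Figure D3:**
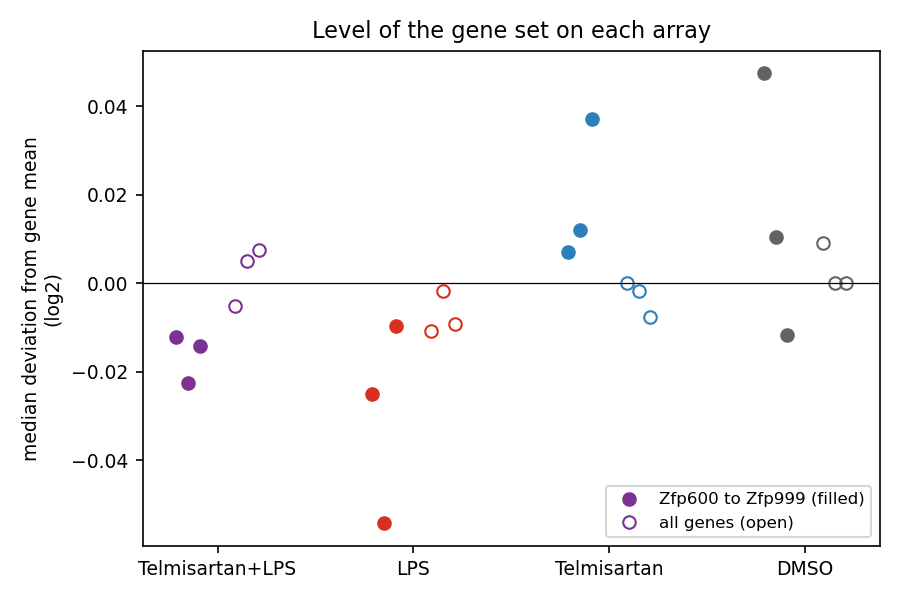
Median over the 166 members of the log2 deviation from each member's mean, for each array (filled points), by treatment group, and the same over all genes (open points). Filled points of the 6 arrays with LPS lie between -0.0542 and -0.00958 and those of the 6 without LPS between -0.0117 and 0.0475.

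The precision bounds what could have been missed. For the average LPS effect, the 95% interval of the log2 change stayed within a fold of 1.5 in either direction for 162 of 166 members and within a fold of 2 for all 166. In each of the LPS comparisons alone it stayed within a fold of 1.5 for 150 members and within a fold of 2 for 165. Smaller changes in these members are neither shown nor excluded with 3 arrays a group.

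The member with the smallest adjusted p for LPS was Zfp830, which in mouse is known as Omcg1 and is needed for cell cycle progression in the early embryo. Its log2 signal was 6.24, 6.23 and 6.22 in telmisartan+LPS cells, 6.38, 6.21 and 6.29 in LPS cells, 6.62, 6.47 and 6.39 in telmisartan cells and 6.50, 6.62 and 6.46 in DMSO cells. Each LPS group lay below its own control group, and the lowest array without LPS (6.39, telmisartan) was just above the highest with it (6.38, LPS). Such a downward separation over all arrays was found for 0.602% of members, against 0.649% of all genes and 1.2% of all brighter genes. The share of members is thus near the background. The average LPS effect was -0.25 (SE 0.05, 95% interval -0.37 to -0.13, limma adjusted p = 0.0641), which did not pass the threshold. The change was -0.23 in LPS against DMSO (adjusted p = 0.361) and -0.26 in telmisartan+LPS against telmisartan (adjusted p = 0.194). Over 20 alternatives, fits with arrays left out among them, the log2 change of Zfp830 for the average ran between -0.29 and -0.22. The smallest limma adjusted p was 0.021, and 3 of them called it. These were the trended and robust fit, the fit without dim genes and that with equal array medians.

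The promoter windows of the 3 members with the smallest adjusted p for the average LPS effect are shown to give the sequence in front of them. They come from RefSeq on GRCm38.p6, run 250 bases before to 50 bases after the annotated start, and read 5′ to 3′ on the strand of the gene. Capitals mark 2 of the motifs listed further on, the CCAAT box on either strand and the GC box GGGCGG, which did not overlap each other. The Zfp830 window lies at chr11:82764095-82764394 on the plus strand with 24 CpG sites. The Zfp748 window lies at chr13:67553103-67553402 on the minus strand with 15 CpG sites and none of the motifs. The Zfp971 window lies at chr2:178023034-178023333 on the plus strand with 4 CpG sites and 2 CCAAT motifs.
Zfp830: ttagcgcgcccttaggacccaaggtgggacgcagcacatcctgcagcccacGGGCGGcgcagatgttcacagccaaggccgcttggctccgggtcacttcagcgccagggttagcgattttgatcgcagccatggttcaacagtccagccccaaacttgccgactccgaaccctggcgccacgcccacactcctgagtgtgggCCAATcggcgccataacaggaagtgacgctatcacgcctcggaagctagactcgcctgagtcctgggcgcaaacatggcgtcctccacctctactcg
Zfp748: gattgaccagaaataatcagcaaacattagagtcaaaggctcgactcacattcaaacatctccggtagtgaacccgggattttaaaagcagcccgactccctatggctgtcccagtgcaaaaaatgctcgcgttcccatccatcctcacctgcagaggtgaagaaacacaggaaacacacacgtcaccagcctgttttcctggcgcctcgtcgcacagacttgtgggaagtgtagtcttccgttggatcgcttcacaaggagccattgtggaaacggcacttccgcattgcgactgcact
Zfp971: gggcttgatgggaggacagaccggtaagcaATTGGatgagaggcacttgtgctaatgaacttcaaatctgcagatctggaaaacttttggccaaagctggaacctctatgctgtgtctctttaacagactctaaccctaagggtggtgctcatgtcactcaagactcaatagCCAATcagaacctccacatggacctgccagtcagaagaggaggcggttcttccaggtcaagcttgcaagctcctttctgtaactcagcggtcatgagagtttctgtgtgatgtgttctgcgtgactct

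Promoter windows were found for 144 members, and the first listed window was used for the 24 members with more than 1. Motifs were searched on both strands, and matches of different motifs were counted apart even where they overlap. CCAAT was present in 56.9% of the members' windows, against 38.5% of windows of the same length over 16990 genes. TATAAA was in 2.78%, against 12.9%, and GGGCGG was in 46.5%, against 46.7%. Among motifs of inducible factors, TGANTCA was in 4.86%, against 7.39%, the NF-kB consensus in 2.78%, against 4.64%, and TGACGTCA in 1.39%, against 2.45%. The Ets motif CCGGAAG was in 14.6%, against 11.7%. The median count of CpG sites was 11.5, against 13. A match is a run of letters and does not show that a factor binds.

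Zfp748 lies beside 3 other members on chromosome 13 and was singled out after its values were seen. Its log2 signal was 6.09, 6.05 and 6.22 in telmisartan+LPS cells, 6.06, 5.97 and 6.28 in LPS cells, 6.40, 6.57 and 6.34 in telmisartan cells and 6.22, 6.28 and 6.45 in DMSO cells. With telmisartan the groups did not overlap, and without it they did. The average LPS effect was -0.26 (SE 0.07, limma adjusted p = 0.118).

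Zfp971 had log2 signals of 5.68, 5.69 and 5.22 in telmisartan+LPS cells, 5.66, 5.81 and 6.06 in LPS cells, 6.06, 5.89 and 6.27 in telmisartan cells and 6.22, 5.83 and 6.22 in DMSO cells. The third telmisartan+LPS array was the lowest of all. Its average LPS effect was -0.40 (SE 0.11, limma adjusted p = 0.139), and its change in telmisartan+LPS against telmisartan was -0.54 (SE 0.15, adjusted p = 0.186).

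The lowest average LPS effects belonged to members with standard errors above the median of all members, which was 0.0788. Zfp944 was at 4.67, 4.17 and 4.56 in telmisartan+LPS cells, 4.28, 3.85 and 4.47 in LPS cells, 4.45, 5.37 and 4.65 in telmisartan cells and 5.24, 4.54 and 4.73 in DMSO cells. Its average was -0.50 (SE 0.17, limma adjusted p = 0.221), and its change in LPS against DMSO was -0.64 (SE 0.24, adjusted p = 0.447). The LPS and DMSO arrays did not overlap, while the arrays with telmisartan did. Zfp708, a mouse KRAB zinc finger protein that binds a family of retroelements, was at 3.04, 3.62 and 3.54 in telmisartan+LPS cells, 3.62, 3.46 and 3.38 in LPS cells, 4.57, 3.83 and 3.94 in telmisartan cells and 3.32, 3.51 and 4.18 in DMSO cells. Its average was -0.45 (SE 0.16, adjusted p = 0.243). Its change was -0.71 in telmisartan+LPS against telmisartan (SE 0.23, adjusted p = 0.219) and -0.18 in LPS against DMSO, where the arrays overlapped. Zfp974 averaged -0.32 and Zfp619 -0.30, with adjusted p of 0.289 and 0.188.

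Members with the highest average LPS effect had smaller values. Zfp936 was at 0.27 (SE 0.10, limma adjusted p = 0.262), Zfp872 at 0.23 (SE 0.11, adjusted p = 0.353), Zfp719 at 0.16, Zfp704 at 0.14 and Zfp874b at 0.14. Zfp936 had log2 signals of 2.96, 3.57 and 3.30 in telmisartan+LPS cells, 3.24, 3.39 and 3.51 in LPS cells, 3.09, 3.17 and 2.83 in telmisartan cells and 3.25, 2.90 and 3.09 in DMSO cells. Its groups overlapped in both LPS comparisons by a single array each.

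**Figure D4:**
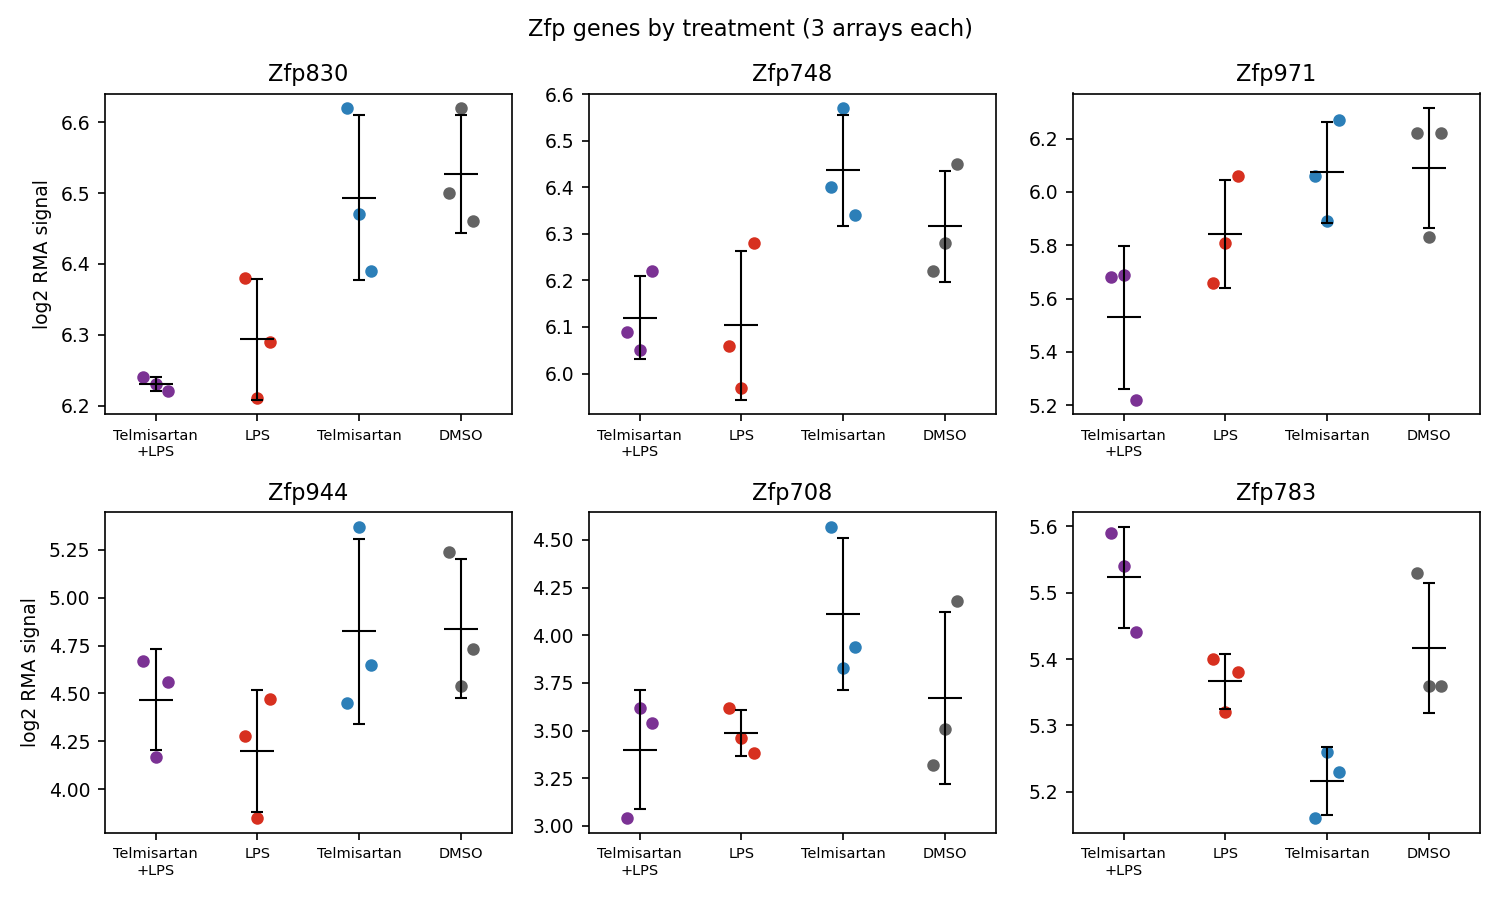
Log2 signal of 6 members on each array (points), by treatment group, with the mean and SD of the 3 arrays as bars, on axes that do not start at 0. In the panel of Zfp830 the arrays with LPS lie at 6.21 to 6.38 and those without at 6.39 to 6.62. A downward separation of this kind was found for 0.602% of members, against 0.649% of all genes. The arrays of Zfp708 and Zfp944 spread more widely within a group.

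The members with the largest changes were listed for each LPS comparison. In LPS against DMSO the 5 lowest were Zfp944, Zfp781 at -0.39, Zfp637 at -0.31, Zfp846 at -0.30 and Zfp937 at -0.29, with limma adjusted p between 0.436 and 0.728. The 5 highest were Zfp872 at 0.32, Zfp936 at 0.30, Zfp712 at 0.28, Zfp719 at 0.28 and Zfp831 at 0.24. Of these 10, picked as the extremes of the same values, Zfp944, Zfp781, Zfp637 and Zfp831 had groups that did not overlap. Groups did not overlap in either direction for 13.3% of all members, against 15.7% of all genes. In telmisartan+LPS against telmisartan the lowest were Zfp708, Zfp971, Zfp974 at -0.42, Zfp619 at -0.40 and Zfp759 at -0.37. The highest were Zfp787 at 0.40, Zfp783 at 0.31, Zfp874b at 0.27, Zfp936 at 0.25 and Zfp959 at 0.23.

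Zfp783, which the reference annotation lists as a long non-coding RNA gene, had the smallest adjusted p of any member in telmisartan+LPS against telmisartan. Its log2 signal was 5.59, 5.54 and 5.44 in telmisartan+LPS cells, 5.40, 5.32 and 5.38 in LPS cells, 5.16, 5.26 and 5.23 in telmisartan cells and 5.53, 5.36 and 5.36 in DMSO cells. The telmisartan+LPS arrays were all above the telmisartan arrays, whereas the LPS and DMSO arrays overlapped. The change was 0.31 with telmisartan present (SE 0.07, limma adjusted p = 0.114) and -0.05 without it. With dim genes left out, the adjusted p with telmisartan present was 0.0385. That was the smallest over 21 alternatives, fits with arrays left out among them, and the only one under 0.05. The log2 change over these ran between 0.25 and 0.35. In the main fit the changes with and without telmisartan differed by 0.36 (SE 0.10, limma adjusted p = 0.604).

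Members with a studied function mostly sat near 0. Of the 22 listed, 21 were measured, 11 of them (52.4%, against 48.5% of all genes) were below 0, 0 were called (0.667% of all genes) and the median average LPS effect was -0.015. Zfp809, which silences murine leukaemia virus through its primer binding site, was at 7.49, 7.03 and 7.23 in telmisartan+LPS cells, 7.03, 7.15 and 7.23 in LPS cells, 7.16, 7.43 and 7.41 in telmisartan cells and 7.41, 7.17 and 7.24 in DMSO cells. Its average was -0.11 (SE 0.08, limma adjusted p = 0.572). The genes Zfp622, whose human counterpart acts in maturation of the large ribosomal subunit, and Zfp638, which has been linked to adipocyte differentiation and to silencing of unintegrated retroviral DNA, were at -0.09 (SE 0.05) and -0.04 (SE 0.06). Zfp746, a parkin substrate that represses the gene of the coactivator Pgc1a, was at -0.02 (SE 0.07), and Zfp652, a transcriptional repressor, was at 0.00 (SE 0.05). Zfp706 was at 0.01 (SE 0.05).

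The remaining members of the list lay between -0.09 and 0.14. Zfp609, a regulator in neural progenitors, was at -0.09 (SE 0.06), Zfp608 at 0.12 (SE 0.06) and Zfp618 at 0.14 (SE 0.10). Zfp637 was at -0.08, Zfp668 at -0.04, Zfp687 at -0.03, Zfp667 at -0.02 and Zfp808 at -0.02. Zfp821 was at 0.12, Zfp819 at 0.10, Zfp804a at 0.07, Zfp703 at 0.04, Zfp750, a regulator of epidermal differentiation, at 0.03 and Zfp711 at 0.02. The adjusted p of these 14 members in limma were between 0.381 and 0.951.

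The machinery that KRAB zinc finger proteins use was examined alongside. Of 20 corepressor genes 0 were called in the average LPS effect (0.667% of all genes), 15 were below 0 and the median was -0.0725. That is 75.0% below 0, against 48.5% of all genes and 64.1% of brighter genes with a median of -0.0317, and 19 of the 20 were among the brighter genes. The heterochromatin protein gene Cbx1 was at -0.20 (SE 0.06, limma adjusted p = 0.18), the chromatin remodeller gene Smarcad1 at -0.19 (SE 0.05, adjusted p = 0.139), the deacetylase gene Hdac1 at -0.15 and Resf1, a partner of Setdb1 in retroelement silencing, at 0.18. Of 42 zinc finger genes with SCAN or BTB domains 40 were measured, 0 were called, 27 (67.5%) were below 0 and the median was -0.0725. Of these 40, 36 were among the brighter genes, of which 64.1% were below 0 with a median of -0.0317. At an unadjusted p under 0.05, 30.0% of the 40 were lower and 5.0% higher. Among all brighter genes these shares were 13.3% and 5.55%. The lowest of these were Zkscan14 at -0.23, Zscan29 at -0.22, Zbtb24 at -0.21 and Zkscan8 at -0.21.

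The second question was what telmisartan did to the family. No member was called in telmisartan against DMSO or in telmisartan+LPS against LPS, and in both 0.0% of all genes were called (limma, adjusted p). In the average telmisartan effect 0 members were called, where 0.00451% of all genes were called, a single gene. Members below 0 numbered 79 (47.6%, against 51.7% of all genes) in telmisartan against DMSO with a median of 0.005. They numbered 75 (45.2%, against 45.3% of all genes) in telmisartan+LPS against LPS with a median of 0.0133, and 78 (47.0%, against 48.4% of all genes) in the average effect. At an unadjusted p under 0.05, 5 members were lower (background 3.03% of all genes) and 6 higher (background 2.48% of all genes) in telmisartan against DMSO. In telmisartan+LPS against LPS 7 were lower (background 4.31% of all genes) and 8 higher (background 5.5% of all genes), and in the average 5 were lower (background 3.49% of all genes) and 5 higher (background 3.84% of all genes). Groups did not overlap in either direction for 8.43% of members, against 11.4% of all genes, in telmisartan against DMSO. In telmisartan+LPS against LPS this held for 13.3% of members, against 13.0% of all genes. The separated groups of single members described below, picked as extremes, stand against these shares. The 95% interval of the average telmisartan effect stayed within a fold of 1.5 for 165 of 166 members.

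The lowest average telmisartan effect belonged to Zfp772, at -0.34 (SE 0.10, limma adjusted p = 0.538). Its log2 signal was 3.48, 3.97 and 3.72 in telmisartan+LPS cells and 4.18, 4.15 and 4.10 in LPS cells, which did not overlap. It was 3.85, 3.69 and 3.80 in telmisartan cells and 3.72, 4.30 and 4.12 in DMSO cells, which did. On every array Zfp772 was below the median signal of all genes (4.44). Zfp608, known in thymocytes as a repressor of the Rag genes, averaged -0.22 (SE 0.06, adjusted p = 0.538). Its signal was 5.21, 4.96 and 5.18 in telmisartan cells, all below the 5.40, 5.37 and 5.33 in DMSO cells. After LPS, the 5.26, 5.15 and 5.42 in telmisartan+LPS cells overlapped with the 5.37, 5.45 and 5.55 in LPS cells. Zfp871 averaged -0.21, Zfp948 -0.17 and Zfp971 -0.16.

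On the other side Zfp697, studied in mouse muscle regeneration, had the highest average telmisartan effect at 0.34 (SE 0.12, limma adjusted p = 0.616). Its signal was 4.91, 4.71 and 4.67 in telmisartan+LPS cells, all above the 4.54, 4.32 and 4.59 in LPS cells. Without LPS, the 4.96, 4.67 and 5.21 in telmisartan cells overlapped with the 4.77, 4.12 and 4.74 in DMSO cells. Zfp974 averaged 0.26, Zfp787 0.25, Zfp607a 0.25 and Zfp932 0.24.

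Zfp787 had the largest change of a member in telmisartan+LPS against LPS. Its signal was 5.92, 5.80 and 6.17 in telmisartan+LPS cells, all above the 5.61, 5.15 and 5.44 in LPS cells, and the change was 0.56 (SE 0.17, limma adjusted p = 0.36). In telmisartan cells it was 5.83, 5.23 and 5.63, overlapping with 5.48, 5.91 and 5.48 in DMSO cells. The lowest in telmisartan+LPS against LPS were Zfp772 at -0.42, Zfp871 at -0.37, Zfp945 at -0.37, Zfp971 at -0.31 and Zfp948 at -0.26, and the other highest were Zfp937 at 0.36, Zfp867 at 0.36, Zfp932 at 0.32 and Zfp607a at 0.32. In telmisartan against DMSO the lowest were Zfp982 at -0.32 (SE 0.09, adjusted p = 0.86), Zfp781 at -0.28, Zfp772 at -0.27, Zfp637 at -0.25 and Zfp608 at -0.25. The highest there were Zfp708 at 0.44, Zfp697 at 0.40, Zfp974 at 0.35, Zfp759 at 0.29 and Zfp933 at 0.29.

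The third question was whether the LPS change differed with the drug. For the interaction 0 members were called, where 0.0% of all genes were called (limma, adjusted p). At an unadjusted p under 0.05, 4 members were lower (background 2.97% of all genes) and 8 higher (background 4.81% of all genes), and 82 members (49.4%, against 45.7% of all genes) were below 0. The lowest values were for Zfp708 at -0.53, Zfp945 at -0.43, Zfp979 at -0.40, Zfp759 at -0.35 and Zfp712 at -0.34. The highest were Zfp787 at 0.62, Zfp781 at 0.57, Zfp637 at 0.45, Zfp959 at 0.37 and Zfp783 at 0.36, and the adjusted p of these 10 were between 0.604 and 0.755. The interaction is the least precise of the comparisons, with an interval within a fold of 1.5 for 124 members and within a fold of 2 for 161.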

How the data were processed

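Per the file headers, the authors made the deposited log2 signals by RMA with quantile normalization over the 12 arrays. The software was Affymetrix Expression Console with engine 1.4.1.46. A deposited table with 2 decimals was used, and one with 5 decimals, differing by at most 0.005, was an alternative. The labels' protocol names an older generation of the array, and the file headers were followed. Of 41345 features, 23521 had 1 symbol, 1820 several and 16004 none in the platform annotation used here. Symbols were updated through Entrez identifiers (23328 matched). Each gene took its brightest feature, giving 22180 genes. The tables held 0 columns of other samples.

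A single model of all arrays, 1 mean for each of 4 groups, was fitted in limma (version 3.58.1, with statmod 1.5.0, under R 4.3.3). It had 8 residual and 4.99 prior degrees of freedom and Benjamini-Hochberg adjustment. The average LPS effect is the mean of the 2 LPS comparisons, and the interaction is telmisartan+LPS minus telmisartan less LPS minus DMSO. Summaries used Python 3.11.15, pandas 2.3.3, numpy 2.4.6 and scipy 1.17.1, and figures matplotlib 3.10.9. The fit was tested on simulated data with independent noise. The rule for passing covered only changes far larger than those seen in the members. Named genes were members called in any comparison, the 5 highest and 5 lowest members in each, the members with a studied function, and up to 4 genes of each other list with the largest average LPS effect. Members and lists were chosen with earlier results of these data known. Alternatives were a trended and robust fit, array weights, leaving out dim genes, equal array medians, other feature rules, platform symbols, the second table and leaving out each array. The labels call the samples of a group independent but give only running numbers, so the p-values rest on between-array spread that may be technical. An array has no read depth, and the number of arrays limits precision. Symbols found only in features of several symbols were not tested as members.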

Additional observations from a re-analysis of the deposited data

How the results depend on the processing

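No paired analysis was possible because the titles carry only running numbers, and no label says that arrays of different groups share a culture, batch or day. The count of called members was 0 in all 7 comparisons under every alternative run, except that telmisartan+LPS against telmisartan called 1 (Zfp783, higher) with dim genes left out, and the average LPS effect called 1 (Zfp830, lower) with the trended and robust fit, with dim genes left out and with equal array medians. The count was 0 with any array left out. Of 2070 alternative values of single genes, 2031 kept direction and side of the threshold, 5 passed it and 34 reversed, all of small changes, for which the cause was not tested. In the average LPS effect, equal array medians gave Zfp652 -0.0433, Zfp703 -0.005, Zfp706 -0.0317, Zfp711 -0.0283 and Zfp750 -0.0133. Array weights gave Zfp652 -0.000345. The mean of all features gave Zfp706 -0.0817. Leaving out telmisartan+LPS replicates 1 and 3, the arrays of lowest weight, chosen after seeing the data, gave Zfp652 -0.0133, Zfp667 0.0567 and Zfp711 -0.025. With 1 array left out in turn, the ranges were -0.0158 to 0.0292 for Zfp652, -0.0533 to 0.0258 for Zfp667, -0.0183 to 0.117 for Zfp703, -0.00833 to 0.0442 for Zfp706, -0.00833 to 0.0375 for Zfp711, -0.0725 to 0.0375 for Zfp746, -0.0325 to 0.0925 for Zfp750 and -0.0667 to 0.0483 for Zfp808. The share of members below 0 in the average LPS effect was 63.3% to 80.7% over all alternatives, the highest with equal array medians, where it was 66.6% of all genes.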

Other observations

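Neighbouring members were compared for the average LPS effect. Only protein-coding genes were counted as neighbours. Of 164 protein-coding members placed on the reference assembly, 77 lay directly beside another member, in 28 runs. The longest run had 6 members, on chromosome 17, namely Zfp820, Zfp995, Zfp942, Zfp943, Zfp947 and Zfp994, and all 6 had log2 changes below 0, with a median of -0.0842 and values between -0.17 for Zfp947 and -0.02 for Zfp820. A run of 4 on chromosome 13 held Zfp748 at -0.26, Zfp729b at -0.03, Zfp729a at -0.19 and Zfp738 at -0.11, with a median of -0.152. A run of 5 on chromosome 8 had 4 members below 0 with a median of -0.107. The other runs of 4 were mixed, with 2 of 4 below 0 and a median of -0.0175 on chromosome 7 (Zfp607a, Zfp974, Zfp780b and Zfp850), 3 of 4 on chromosome 8 and 3 of 4 on chromosome 17. On chromosome 7, 2 runs of 3 had 1 member below 0 each, with medians of 0.095 and 0.00833. None of the members was called in limma, and neighbours may share probe sequence. By chromosome, 20 of 24 members on chromosome 17 and 11 of 13 on chromosome 13 were below 0, against 22 of 37 on chromosome 7, 9 of 16 on chromosome 8, 8 of 11 on chromosome 4, and 66.9% of all members.

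Of the members, 10 had more than 1 feature, and the features did not always have the same sign. Zfp706 was at 0.01 in the feature used and at -0.18 in a second, dimmer one. Zfp939 was at 0.06 and at -0.16, and Zfp784 at 0.03 and at -0.13. The reverse was seen for Zfp937, at -0.12 in the feature used and 0.08 in the other, and for Zfp979, at -0.13 in the feature used and 0.10 and 0.04 in the others. A further 10 symbols of this range occurred here only in features annotated to several symbols. Features of several symbols with any symbol of this range, members included, numbered 29. In the average LPS effect, with adjustment over 41345 features, 0 of the 29 were called, where 0.667% of all genes were called. Of the 29, 26 were below 0, against 48.5% of all genes. Both background shares are over genes read from their brightest feature, so they are not like for like with the 29. The share over all features was not computed. Features of several symbols may also share probe sequence, so the 29 need not be separate readings.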
